A study of Mus musculus with 12 samples.

Results

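The 26 RNA-binding and ribosomal genes described here were taken from a table of 658 genes. These genes were measured by bulk poly(A) RNA sequencing in mouse cells labelled as bone marrow mesenchymal stem cells (BMSCs). A gene was a member if its deposited annotation named RNA binding or structural constituent of ribosome, named none of kinase activity, mitochondrion, regulation of transcription, endoplasmic reticulum or Golgi apparatus, and if its level was at least 1 TPM (a transcript level scaled for gene length and library size) in at least 6 of the 12 libraries. The annotation part of the rule found 28 genes, and 2 of them did not reach the level. Rpl3l, a paralog of a large-subunit ribosomal protein gene best known from muscle, was listed at 0 in every library, and Elavl3, a neuronal RNA-binding protein gene, had 3 counts in 1 library and none in the others. All 26 members carried the RNA binding term, and Rpl8 was among those that carried the ribosomal term as well. Another 10 genes with one of these terms were left out because they also carried a barred term.

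All libraries were labelled as wild-type BMSCs, the name for the plastic-adherent stromal cells of marrow, in osteogenic medium. Leukocyte marker genes were also present, as given below. The medium held 15% fetal bovine serum and was supplemented with ascorbic acid at 50 µM, β-glycerophosphate at 10 mM and the glucocorticoid dexamethasone at 100 nM. One group of 6 libraries received the agent spelled α-Asaronel in the labels, read here as the plant phenylpropanoid α-asarone, and the other group of 6 was the control without it. Neither its dose nor the time of exposure is given in the sources used here. Whether the libraries of a group came from different animals or cultures is not stated, so the p-values reflect differences among 12 libraries that may be technical.

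RNA-binding proteins accompany a transcript through its life. In the nucleus, spliceosomal proteins remove introns and export factors carry the mature mRNA to the nuclear pore, while nucleolar helicases, methyltransferases and small nucleolar ribonucleoproteins build ribosomes. In the cytoplasm, initiation factors, helicases and ribosomal proteins translate the message, and silencing and decay factors limit its use. In cells that lay down bone matrix, this machinery serves a high output of secreted protein.

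The estimated counts summed over the table ranged from 843595 to 1224256 per library, and the members took 38363 to 60171 of them, or 4.46% to 4.91%. The table is part of each transcriptome, so these totals are not library depths. Of 11 stromal marker genes the table held Col1a1, at 1208 to 1428 TPM with α-asarone and 1720 to 2103 TPM in controls, and of 8 osteoblast markers it held Dlx3, at 1.30 to 2.45 TPM against 1.32 to 2.05 TPM. Leukocyte markers were present: Itgb2, Cfp and Spi1, 3 genes of a list of 7, summed to 861 to 994 TPM with α-asarone and 735 to 818 TPM in controls. The 2 endothelial markers in the table, Vwf and Esam, summed to at most 2.11 TPM. Of 3 lymphoid markers Vpreb3 and Cd3g were listed at 0 in every library, and the 3 together reached at most 0.099 TPM. The part of the stromal and leukocyte shifts in the results below was not tested. In bulk RNA, fewer cells of a type and less RNA per cell cannot be told apart.

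Most members differed little between the groups. By edgeR's quasi-likelihood test at an adjusted p under 0.05, 4 of the 26 members changed (15.4%), against 30.3% of the 512 genes tested. The ribosome assembly genes Nom1 and Ddx18 and the tRNA methyltransferase gene Trmt1 rose (3 of 26, against 12.9% of all genes tested that rose), and Prkra, which encodes a double-stranded RNA-binding partner of Dicer and activator of the kinase PKR, fell (1 of 26, against 17.4% of all genes tested that fell). Each of these changes was between 8.99% and 11.04% in size, so none came near 2-fold. The other 22 members, among them Rpl8 and all 8 splicing genes, did not pass.

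The promoters of the changed genes are shown because 3 of the 4 have a window in RefSeq's table for GRCm38.p6 (18 of the 26 members do, with 26 windows between them). Each line gives the 250 bases before RefSeq's start, 5′ to 3′ on the gene's own strand. The gene coordinates given further below are GENCODE's, which put the starts of Nom1 (29434664) and Ddx18 (121567989) inside these windows. Capitals mark matches, on either strand, to the letters searched: CCGGAAG for ETS factors, CACGTG for the E-box, AAGATGG for YY1 and GGGCGG for the GC box.
Nom1 (chr5:29434417-29434666, plus strand): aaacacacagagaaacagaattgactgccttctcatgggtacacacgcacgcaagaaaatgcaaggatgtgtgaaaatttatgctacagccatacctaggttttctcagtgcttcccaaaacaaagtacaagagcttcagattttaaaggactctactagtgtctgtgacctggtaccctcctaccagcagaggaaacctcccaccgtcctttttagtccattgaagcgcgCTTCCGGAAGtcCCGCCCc
Ddx18 (chr1:121567981-121568230, minus strand): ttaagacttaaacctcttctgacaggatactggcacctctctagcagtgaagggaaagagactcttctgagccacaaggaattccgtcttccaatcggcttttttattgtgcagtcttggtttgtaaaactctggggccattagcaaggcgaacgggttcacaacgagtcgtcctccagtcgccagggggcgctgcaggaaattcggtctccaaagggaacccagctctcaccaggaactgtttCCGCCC
Prkra (chr2:76648028-76648277, minus strand): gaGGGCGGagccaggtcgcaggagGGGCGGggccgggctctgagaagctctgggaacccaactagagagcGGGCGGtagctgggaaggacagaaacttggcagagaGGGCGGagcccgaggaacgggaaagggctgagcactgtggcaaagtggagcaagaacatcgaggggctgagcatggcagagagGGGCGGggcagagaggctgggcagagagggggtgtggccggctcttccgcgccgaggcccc
The window of Nom1 ended in a pair of ETS matches on opposite strands, beginning 19 and 16 bases before the start and overlapping each other, followed by a GC box match 7 bases before it. That of Ddx18 held 1 match, a GC box on the opposite strand 6 bases before RefSeq's start, which lies inside the gene by GENCODE's coordinates. The window of Prkra, the gene that fell, held 5 GC box matches, all on its own strand, from 248 to 61 bases before the start. The full windows also take in 50 bases after the start. Over the members' full windows GC box letters were in 15 of 18 genes (83.3%), against 38.2% of all genes in RefSeq's table. ETS letters were in 6 of 18 (33.3%), against 9.93%. RefSeq's table also takes in genes not tested here, and the shares among the tested genes were not computed. E-box letters were in 3 genes (16.7%, against 8.09%) and YY1 letters in 2 (11.1%, against 7.28%). The 6 genes with ETS letters were Fmr1, Hnrnpd, Nhp2, Nom1, Prpf6 and Sf3a1. Of these 1, Nom1, changed, against 30.3% of all genes tested. A match describes the letters of the window and is not evidence of binding.

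The members covered a wide range of levels, which do not depend on the contrast. On the TPM scale Rpl8 was the highest, at 779 TPM over all libraries, while the helicase gene Ddx3x had 264 TPM and Hnrnpd 144 TPM. A run of 8 members, from Puf60 at 87.5 TPM to Celf2 at 56.3 TPM with overlapping neighbours, lay close together, and the lowest were Nom1 at 10.99 TPM, Pcbp3 at 6.03 TPM and Nsun5 at 5.60 TPM. The median member had 53.6 TPM against 35.6 TPM for all genes tested. The summed level of the members ran from 2863 to 2995 TPM with α-asarone and from 2742 to 2902 TPM in controls, with overlap between the groups.

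**Figure D1:**
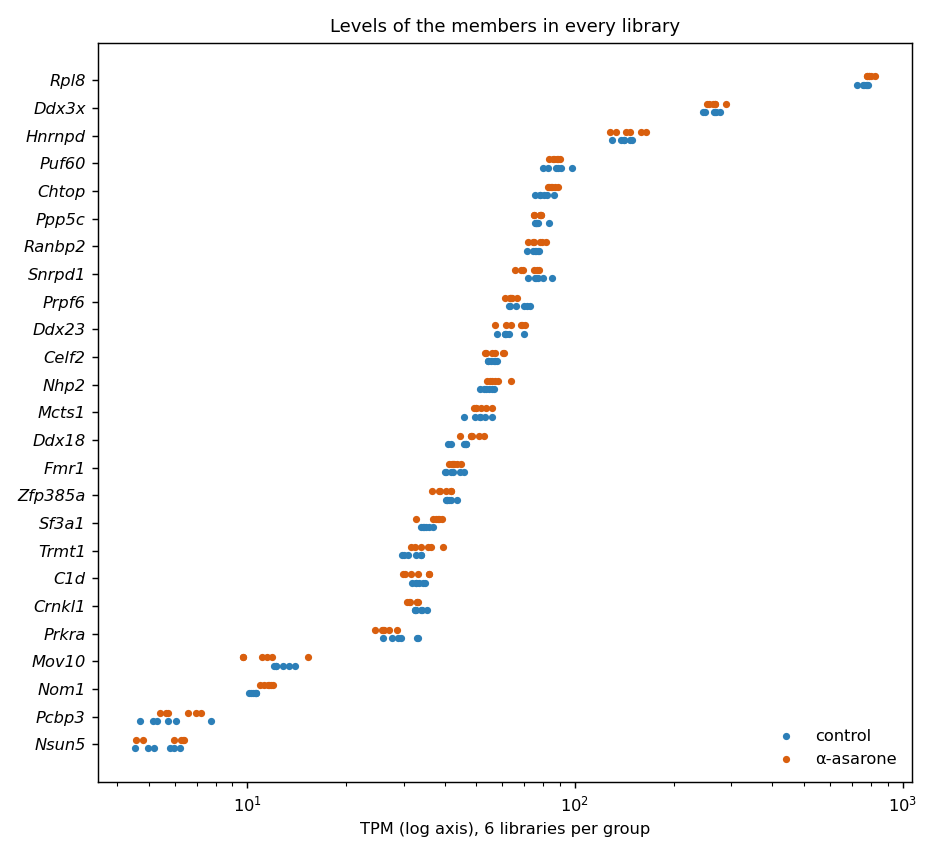
Level of 25 members in every library, as TPM on a log axis, with 6 control libraries (blue) and 6 α-asarone libraries (orange) per gene. Rpl8 stands at the top and Nsun5 and Pcbp3 at the bottom; the groups overlap for every member shown except Nom1.

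Replicates of a group lay close together for most members. The median coefficient of variation of the members was 5.58% with α-asarone and 5.26% in controls, against 6.07% and 6.10% for all genes tested. Rpl8 varied by 2.01% and 2.86%, whereas the weakly expressed Nsun5 varied by 14.4% and 11.8% and Pcbp3 by 12.2% and 18.5%. Mov10 varied by 18.1% with α-asarone and 6.00% in controls.

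Ribosomal proteins form the body of the ribosome together with its RNA, and Rpl8 belongs to the large subunit. Rpl8 (ENSMUSG00000003970, chromosome 15, 76904078 to 76906314, plus strand, GRCm38) had a lowest, median and highest level of 779, 790 and 822 TPM with α-asarone and 724, 768 and 786 TPM in controls. All 6 α-asarone libraries lay above the control median and 4 above every control, yet the ranges overlapped. Its fitted difference of 0.06 ± 0.02 on the log2 scale (SE) had an edgeR adjusted p of 0.0617. EdgeR did not call Rpl8, though its unadjusted p was under 0.05. Of the other tools, DESeq2, limma voom with library weights and the exact Mann-Whitney test each called Rpl8, and limma on log2(TPM + 1) did not. Rpl13, another large-subunit gene, carries a barred annotation and is no member. Its lowest, median and highest levels were 1111, 1175 and 1255 TPM in the treated group, against 1124, 1168 and 1186 TPM, and edgeR did not call it (adjusted p = 0.532).

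Of the 4 ribosome biogenesis genes, Nom1 and Ddx18 rose, and Nhp2 and C1d did not pass. Over all genes tested 30.3% changed and 12.9% rose. Nom1 (ENSMUSG00000001569, chromosome 5, 29434664 to 29457843, plus strand) encodes a nucleolar protein with a domain shared with translation initiation factors. Its levels were 12.005, 11.6, 10.9, 11.2, 11.8 and 11.6 TPM in α-asarone replicates 1 to 6 and 10.3, 10.7, 10.1, 10.7, 10.4 and 10.6 TPM in control replicates 1 to 6. Every α-asarone library was above every control library. Nom1 was the 1 member whose groups did not overlap, against 14.3% of all genes tested. The rise was 10.7%, or 0.15 ± 0.03 on the log2 scale (SE, edgeR adjusted p = 0.00148). Its mean level was 11.5 ± 0.396 TPM for α-asarone libraries and 10.4 ± 0.216 TPM for control libraries (SD, n = 6 each), and the 95% confidence interval of the rise was 5.42% to 16.3%. The call held in 21 of the 24 alternatives that tested Nom1, including each of 12 fits without 1 library. It was lost with limma on log2(TPM + 1), log2(TPM + 0.1) and log2(TPM + 5), at adjusted p values of 0.0601, 0.0597 and 0.0574. In 2 libraries its estimated count was not a whole number, so some of its reads were assigned in part.

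Ddx18 (ENSMUSG00000001674, chromosome 1, 121553835 to 121567989, minus strand) encodes a nucleolar DEAD-box helicase. It had 44.5, 48.3, 48.4, 52.9, 50.9 and 48.1 TPM in α-asarone replicates 1 to 6 and 46.6, 41.1, 41.8, 46.6, 46.3 and 45.97 TPM in control replicates 1 to 6. Of the α-asarone libraries 5 exceeded every control, while replicate 1 lay within the control range. The rise was 8.99%, or 0.12 ± 0.04 on the log2 scale (SE, edgeR adjusted p = 0.0298). The call was lost without α-asarone replicate 4 (adjusted p = 0.0873) or 5 (adjusted p = 0.0729), without control replicate 2 (adjusted p = 0.0837) or 3 (adjusted p = 0.0775), by limma on log2(TPM + 1) (adjusted p = 0.0600) and by the exact Mann-Whitney test (adjusted p = 0.0978). Mean levels were 48.8 ± 2.85 TPM for α-asarone libraries and 44.7 ± 2.55 TPM for control libraries (SD, n = 6 each).

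Nhp2, a core protein of the small nucleolar ribonucleoproteins that guide pseudouridine formation and of telomerase, had 53.8, 56.5 and 63.7 TPM (lowest, median and highest) with α-asarone and 51.3, 54.1 and 56.8 TPM in controls. It did not pass (log2 fold change 0.09 ± 0.05 SE, edgeR adjusted p = 0.200). C1d, a cofactor of the nuclear RNA exosome, had 29.9, 32.4 and 35.9 TPM against 31.8, 33.1 and 34.8 TPM. It did not pass either (log2 fold change −0.09 ± 0.04 SE, edgeR adjusted p = 0.0995). On log2(TPM + 1) its difference was smaller, at −0.03.

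**Figure D2:**
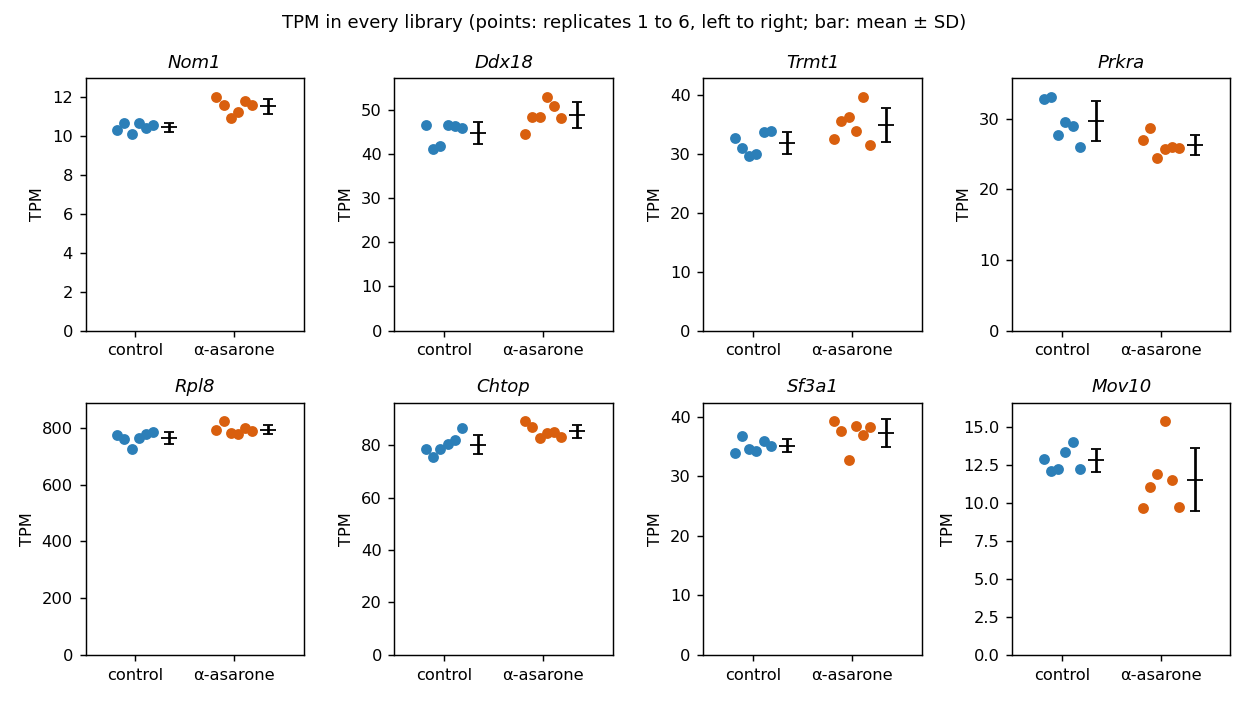
TPM of 8 members in every library, with control replicates in blue and α-asarone replicates in orange, each panel on its own axis from 0, and the mean ± SD of 6 libraries beside the points. Nom1 separates the groups (10.9 to 12.005 against 10.1 to 10.7 TPM), while the points of Ddx18, Trmt1, Prkra, Rpl8, Chtop, Sf3a1 and Mov10 overlap between the groups.

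Of the 2 RNA modification enzymes, Trmt1 rose (12.9% of all genes tested rose). Trmt1 (ENSMUSG00000001909, chromosome 8, 84686307 to 84699808, plus strand) encodes the enzyme that places dimethylguanosine in tRNAs. It had 32.5, 35.7, 36.3, 33.9, 39.7 and 31.5 TPM in α-asarone replicates 1 to 6 and 32.8, 30.95, 29.7, 30.1, 33.8 and 33.9 TPM in control replicates 1 to 6. The groups overlapped, and 3 of the 6 α-asarone libraries exceeded every control. The rise was 11.04%, or 0.15 ± 0.05 on the log2 scale (SE, edgeR adjusted p = 0.0203). The call was lost without α-asarone replicate 5, the highest library (adjusted p = 0.0668), without control replicate 3, the lowest (adjusted p = 0.0573), by the exact Mann-Whitney test (adjusted p = 0.230) and by limma on log2(TPM + 1) (adjusted p = 0.110). Mean levels were 34.9 ± 2.94 TPM for α-asarone libraries and 31.9 ± 1.86 TPM for control libraries (SD, n = 6 each). Nacc1, which overlaps Trmt1 on the opposite strand, rose as well, by 0.11 on the log2 scale (edgeR adjusted p = 0.00243). The strandedness of the libraries is not stated, so reads of Trmt1 and Nacc1 from the overlap cannot be told apart.
Nsun5, a methyltransferase gene for a cytosine of ribosomal RNA, had 4.58, 6.12 and 6.41 TPM (lowest, median and highest) with α-asarone and 4.55, 5.50 and 6.22 TPM in controls. With mean counts of 109 and 107 per library in the 2 groups, its confidence interval ran from −10.7% to 20.8%, and it did not pass (edgeR adjusted p = 0.722). Its counts were not whole in any of the 12 libraries.

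The 2 genes of RNA silencing both had lower fitted levels, and Prkra fell (17.4% of all genes tested fell). Prkra (ENSMUSG00000002731, chromosome 2, 76629898 to 76648015, minus strand) had 27.0, 28.7, 24.5, 25.8, 26.1 and 25.9 TPM in α-asarone replicates 1 to 6 and 32.8, 33.1, 27.7, 29.5, 28.9 and 25.97 TPM in control replicates 1 to 6. Control replicates 1 and 2 were the highest libraries, and control replicates 3 and 6 lay inside the α-asarone range. Prkra fell by 10.6%, a log2 fold change of −0.16 ± 0.06 (SE, edgeR adjusted p = 0.0369), from 29.7 ± 2.82 to 26.3 ± 1.41 TPM (mean ± SD, n = 6 each). The call held in 13 of 25 alternatives. It was lost without control replicate 1 (adjusted p = 0.115), 2 (adjusted p = 0.0940) or 4 (adjusted p = 0.0603), and without α-asarone replicate 3 (adjusted p = 0.0835), 4 (adjusted p = 0.0618), 5 (adjusted p = 0.0512) or 6 (adjusted p = 0.0620). It was also lost when table totals replaced the TMM factors (adjusted p = 0.128), limma on log2(TPM + 1) (adjusted p = 0.0516) and the exact Mann-Whitney test (adjusted p = 0.0978).
Mov10, an RNA helicase gene linked to the silencing complex and to defence against retroelements, had 9.67, 11.05, 11.9, 15.4, 11.5 and 9.71 TPM in α-asarone replicates 1 to 6 and 12.9, 12.1, 12.2, 13.4, 13.99 and 12.2 TPM in control replicates 1 to 6. In 5 of the 6 α-asarone libraries Mov10 was below every control, and in replicate 4 it was above every control. It did not pass (log2 fold change −0.15 ± 0.08 SE, edgeR adjusted p = 0.156). Without α-asarone replicate 4 it was called lower, at −0.23 (adjusted p = 0.00761).

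None of the 3 genes of translation control passed with edgeR, DESeq2, limma on log2(TPM + 1), limma voom or the exact Mann-Whitney test. None had an unadjusted p under 0.05 in any of these. Of all genes tested, edgeR called 30.3%, and 39.8% had an edgeR unadjusted p under 0.05. Ddx3x, an X-linked DEAD-box helicase gene that acts in translation initiation, had 254, 265 and 288 TPM (lowest, median and highest) with α-asarone and 246, 267 and 277 TPM in controls. Mcts1, whose protein works in ribosome recycling and re-initiation, had 49.1, 50.7 and 55.9 TPM against 45.9, 51.3 and 55.6 TPM. Fmr1, the gene of the translational repressor lost in fragile X syndrome, had 41.2, 42.6 and 44.9 TPM against 40.1, 42.1 and 45.9 TPM. Their log2 fold changes were 0.02, and the 95% confidence intervals were −2.76% to 6.21% for Ddx3x, −6.39% to 9.79% for Mcts1 and −3.41% to 6.12% for Fmr1. These 3 genes are also the members on the X chromosome.

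The 8 splicing and hnRNP genes had 3 positive and 5 negative log2 fold changes, and none passed with edgeR, against 30.3% of all genes tested. Of these 8 genes 2, Sf3a1 and Prpf6, had an edgeR unadjusted p under 0.05, in opposite directions, against 39.8% of all genes tested. Sf3a1, which encodes a subunit of the complex that recognises the branch site, had 39.2, 37.6, 32.7, 38.5, 36.8 and 38.3 TPM in α-asarone replicates 1 to 6 and 33.97, 36.7, 34.6, 34.3, 35.96 and 35.04 TPM in control replicates 1 to 6. In 5 of 6 α-asarone libraries it exceeded every control, and replicate 3 lay below every control. It narrowly missed the threshold (edgeR adjusted p = 0.0504), with a fitted difference of 0.09 ± 0.03 on the log2 scale (SE). Without α-asarone replicate 3 it was called, at 0.12 (adjusted p = 0.00271), as it was without control replicate 2 (adjusted p = 0.0411), and DESeq2 also called it (adjusted p = 0.0430). Prpf6, which bridges the small nuclear ribonucleoproteins that join the spliceosome together, had 61.00, 63.7 and 66.5 TPM (lowest, median and highest) with α-asarone against 62.9, 67.9 and 72.9 TPM (edgeR adjusted p = 0.0869, log2 difference −0.08 ± 0.03 SE). It was called lower without control replicate 2 (adjusted p = 0.0401) or control replicate 5 (adjusted p = 0.0269), and by edgeR with the replicate block (adjusted p = 0.0487). Prpf6 overlaps Samd10 and Zfp512b, itself a called gene, on the opposite strand. As for Trmt1, reads from that overlap cannot be told apart. Nhp2 and Nsun5 also overlap a gene on the opposite strand, Rmnd5b and Pom121.

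Hnrnpd, which encodes the AU-rich element binding protein AUF1, had 128, 145 and 165 TPM with α-asarone and 130, 141 and 149 TPM in controls (log2 fold change 0.05 ± 0.04 SE, edgeR adjusted p = 0.251). It was called higher without α-asarone replicate 2, at 0.09 (adjusted p = 0.0423). Puf60, a splicing factor binding pyrimidine-rich RNA, had 83.5, 87.2 and 90.2 TPM against 79.8, 88.2 and 97.7 TPM. Snrpd1, a core Sm protein gene, had 65.8, 72.3 and 77.8 TPM against 71.99, 76.6 and 85.1 TPM (edgeR adjusted p = 0.179, log2 difference −0.10 ± 0.05 SE). The 3 other splicing genes, the spliceosomal helicase gene Ddx23, the splicing regulator gene Celf2 and the crooked-neck homolog Crnkl1, had log2 fold changes of 0.01, −0.03 and −0.06. Celf2 was slightly higher in mean TPM (56.8 against 55.9 TPM) and lower in the fit of counts. For Ddx23 the difference on log2(TPM + 1) was 0.06, against 0.01 in the fit. Celf2 overlaps 3 other annotated genes on its strand. Of the 7 members annotated with mRNA processing none was called by edgeR, as was none of the 16 tested genes with that term. Over all genes tested the share was 30.3%. In both sets 2 genes had an unadjusted p under 0.05 with edgeR, against 39.8% of all genes tested. DESeq2 called 1 in each set, Sf3a1, against 31.25% of all genes tested.

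The 2 RNA export genes did not pass with edgeR, where 30.3% of all genes tested did. Chtop, which encodes a component of the mRNA export complex TREX, had 89.03, 86.8, 82.7, 84.7, 84.9 and 83.2 TPM in α-asarone replicates 1 to 6 and 78.5, 75.5, 78.5, 80.6, 81.9 and 86.5 TPM in control replicates 1 to 6. Every α-asarone library was above the control median, and control replicate 6 exceeded 4 of the 6 α-asarone libraries. Its fitted difference was 0.07 ± 0.03 on the log2 scale (SE), with an edgeR adjusted p of 0.0612. Without control replicate 6 it was called higher (adjusted p = 0.0220), and DESeq2 called it (adjusted p = 0.0411). Ranbp2, a nucleoporin of the cytoplasmic filaments of the pore, had 71.7, 76.7 and 81.7 TPM (lowest, median and highest) against 71.4, 75.8 and 77.7 TPM. GENCODE release M21 lists 12 pseudogenes named after it, and its estimated counts were whole in all 12 libraries; whether reads were shared with them was not tested.

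The 3 remaining members are the RNA-binding zinc finger gene Zfp385a, the poly(C)-binding protein gene Pcbp3 and Ppp5c, a protein phosphatase gene that carries the RNA binding term. None was called by edgeR or by the 4 other tools compared, and none had an unadjusted p under 0.05. For edgeR these shares were 30.3% and 39.8% of all genes tested. Zfp385a had 36.6, 39.6 and 41.8 TPM with α-asarone and 40.4, 40.9 and 43.6 TPM in controls, and 4 of its 6 α-asarone libraries were below every control. Ppp5c had 74.9, 78.1 and 78.7 TPM against 75.5, 76.2 and 83.2 TPM. Pcbp3 had 5.43, 6.17 and 7.24 TPM against 4.71, 5.53 and 7.75 TPM. In the fit of counts Pcbp3 had the largest change of any member (log2 fold change 0.19 ± 0.11 SE, edgeR adjusted p = 0.181), with an interval from −1.74% to 32.4%. On log2(TPM + 1) its difference was 0.11, where Prkra had the largest of any member in size, at −0.16.

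**Figure D3:**
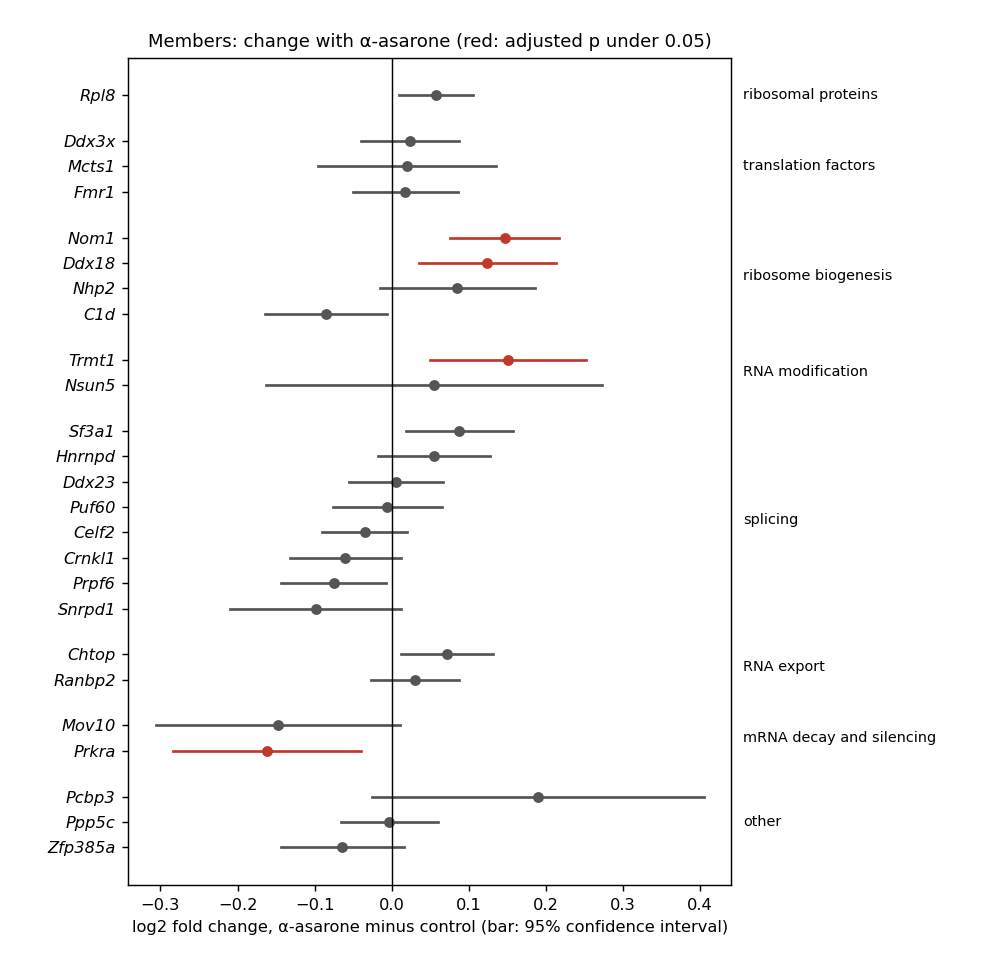
Log2 fold change of 25 members, α-asarone minus control, from edgeR with its 95% confidence interval, grouped by role. Nom1, Ddx18 and Trmt1 (red) lie above 0, Prkra (red) lies below, and the 21 members in grey did not pass.

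The 95% confidence intervals give the precision of these values for these libraries under TMM scaling. They do not cover the choice of scaling. For 25 of the 26 members the whole 95% confidence interval stayed within a fold that a 25% rise makes, in either direction, Pcbp3 being the exception, and for 13 it stayed within 1.1-fold. Among all 512 genes tested these counts were 395 and 164. Over the 22 members that did not pass, the intervals reached from −19.1% (Mov10) to 32.4% (Pcbp3). The median log2 fold change of the members was 0.02, with 16 values above 0 and 10 below, against a median of 0.00069 and 262 above 0 over all genes tested. The median absolute change was 0.06 against 0.08, and no member reached 0.25, a size that 67 of the 512 genes passed. Before adjustment 9 members had a p under 0.05 with edgeR (9 of 26, against 39.8% of all genes tested). No test was made of the members against the other genes.

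The choice of tool and scaling moved the number of calls. DESeq2 called 7 members, 6 higher and 1 lower, adding Chtop, Sf3a1 and Rpl8 to the 4 above. Limma on log2(TPM + 1) called none, with 8 members at an unadjusted p under 0.05, and the exact Mann-Whitney test called 2, Nom1 and Rpl8. When table totals replaced the TMM factors, 9 members were higher and none lower, against 3 higher and 1 lower; that scaling moved the median of all genes to 0.04. In each of the 26 settings run, the reported one included, the share of members called was below the share of the whole table in the same setting. The settings refit the same 12 libraries, so they are not separate observations. The shares were 34.6% of members against 36.9% with table totals, the closest pair, and 26.9% against 31.25% with DESeq2. They were 0% against 22.9% by limma on log2(TPM + 1) and 7.69% against 20.5% by the exact Mann-Whitney test.

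**Figure D4:**
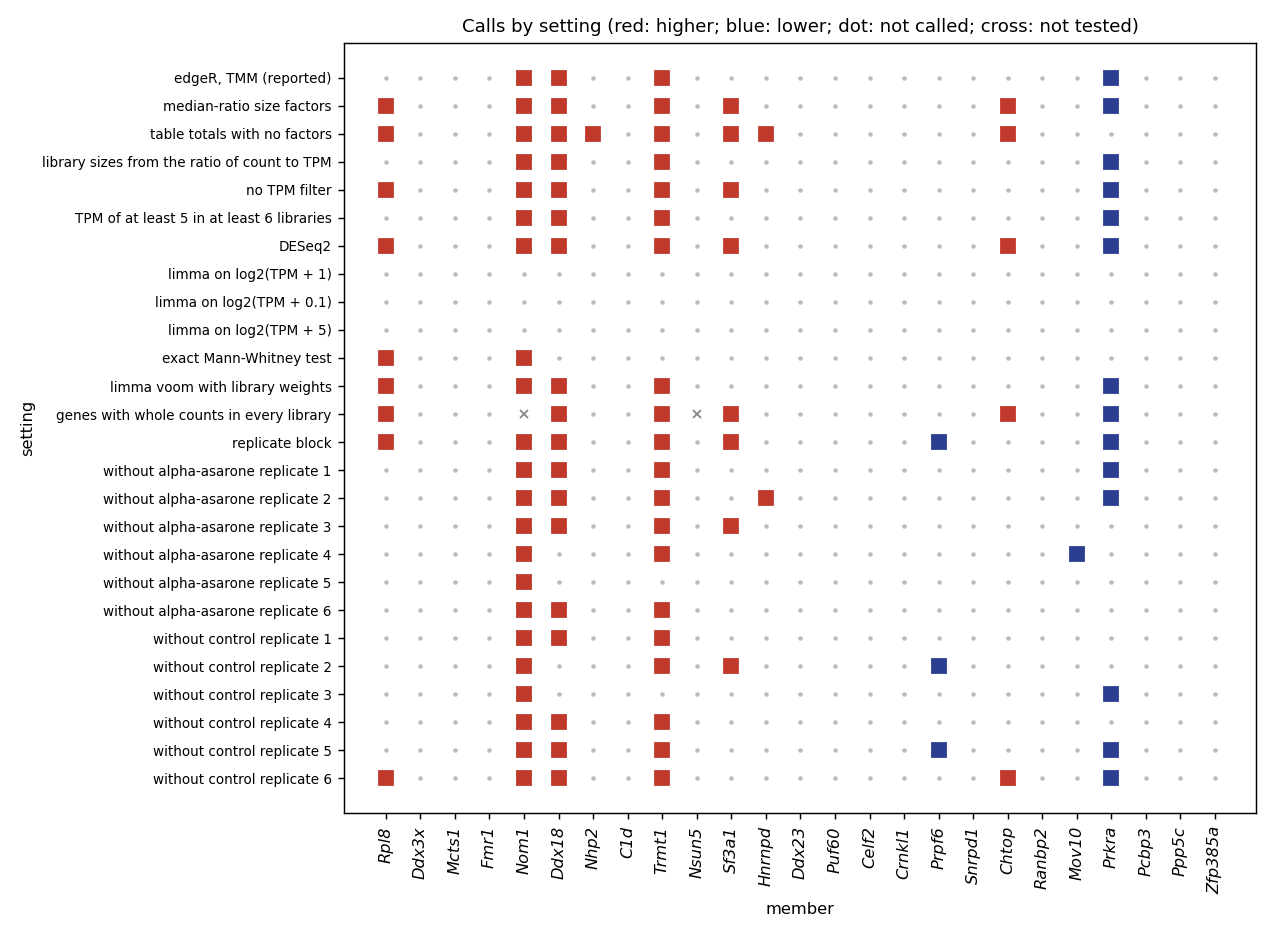
Calls of 25 members (columns) in each setting (rows), with red squares for higher, blue squares for lower, dots for not called and crosses for not tested. Nom1 is called in all 12 settings that leave out 1 library, Trmt1 in 10, Ddx18 in 8 and Prkra in 5, and the 3 limma settings on log2 TPM call no member shown.

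The members also shared annotation that the rule does not name. The rule required an RNA binding or ribosomal term and barred mitochondrion, endoplasmic reticulum and Golgi apparatus, and the genes tested were not so chosen. The shares of terms for cell compartments and RNA functions are therefore not independent of the rule. The nucleus was named for 22 of 26 (84.6%, against 44.5% of the genes tested) and the nucleolus for 9 (34.6%, against 6.05%). The 9 nucleolar members held both rises of ribosome assembly, and 2 of these 9 changed (22.2%), against 30.3% of all genes tested and 5 of the 31 tested genes with that term (16.1%). The term ribonucleoprotein complex was carried by 9 members, none of them called by edgeR, against 30.3% of all genes tested and 1 of the 18 tested genes with that term (Mrpl4). Of these 9 members 1 had an unadjusted p under 0.05 with edgeR, against 39.8% of all genes tested. DESeq2, limma voom and the exact Mann-Whitney test each called 1 of the 9, Rpl8, while limma on log2(TPM + 1) called none. RNA helicase activity was named for Ddx3x, Ddx18, Mov10 and Ddx23, 4 of the 5 tested genes with that term. Of these 4 Ddx18 changed, against 30.3% of all genes tested. The members lay on 11 chromosomes, with 4 each on chromosomes 2 and 15.

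Other genes of RNA metabolism were read from the same annotation: 36 tested genes that are not members carried a term for RNA binding, translation, aminoacylation, splicing, ribosomal or transfer RNA processing, mRNA transport or mRNA decay. Of these 36 genes 9 changed by edgeR (25%), against 30.3% of all genes tested. Higher were 5 and lower 4 of the 36, against 12.9% and 17.4% of all genes tested. The median log2 fold change of the 36 was 0.02. Rrp15, a gene of large-subunit ribosome assembly, rose, with 20.1 to 26.1 TPM in α-asarone libraries and 18.7 to 23.2 TPM in controls. Its log2 difference was 0.20 ± 0.07 (SE, edgeR adjusted p = 0.0319). The exact Mann-Whitney test did not call Rrp15 (adjusted p = 0.136). Its call was lost without any one of 7 libraries, α-asarone replicates 2, 4, 5 and 6 and control replicates 1, 5 and 6, at adjusted p values from 0.0530 to 0.0899. Nup214, a nucleoporin gene, had 33.1 to 38.6 TPM with α-asarone and 30.9 to 32.7 TPM in controls, with no overlap (edgeR adjusted p = 4.0e-04, log2 difference 0.15 ± 0.03 SE). Mrpl4, a mitochondrial ribosomal protein gene, had 41.5 to 46.1 TPM against 36.4 to 41.2 TPM (edgeR adjusted p = 0.0262, log2 difference 0.14 ± 0.05 SE), a call lost without α-asarone replicate 2 (adjusted p = 0.0586) or control replicate 1 (adjusted p = 0.0678).
The importin gene Ipo4 and the myeloid transcription factor gene Spi1, which carries the RNA binding term, also rose, by 0.10 and 0.19 on the log2 scale. Among the falls, Hbp1, an HMG-box factor gene with the RNA binding term, fell by 0.14 on the log2 scale. Its call was lost with the exact Mann-Whitney test (adjusted p = 0.0978). Mcm3ap, of the mRNA export complex TREX-2, fell by 0.12. Calr, the calreticulin gene, fell by 0.09. Oas1c, of the oligoadenylate synthetase family that senses double-stranded RNA, fell by 0.48 on the log2 scale at 1.42 to 3.54 TPM against 2.45 to 4.16 TPM (edgeR adjusted p = 0.0101), a call lost with the exact Mann-Whitney test (adjusted p = 0.409) and by limma on log2(TPM + 1) (adjusted p = 0.193). Akt1, the kinase gene, was the most abundant of the others that did not pass after Rpl13. It had 238 to 257 TPM against 246 to 270 TPM (edgeR adjusted p = 0.0803). Limma voom with library weights called Akt1 lower (adjusted p = 0.0484).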

How the data were processed

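Per the file headers, the deposited table gives each gene a TPM level and an estimated count in every library, next to annotation text. The submitters' processing notes name GRCm38 and mm10; no aligner or quantifier is named in them. Between 7.45% and 9.57% of a library's estimated counts are not whole. The table analysed here held 658 genes, whose TPM made up 5.36% to 5.67% of each library's TPM total. All 658 identifiers matched GENCODE release M21 (GRCm38), the source of coordinates and overlaps. The last row's annotation is cut short, and S100a4, Flii and Myo18a, which the rule leaves out, carried neither term.

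Estimated counts were rounded to whole numbers and fitted with edgeR 4.0.16 (glmQLFit, glmQLFTest, TMM factors from 0.976 to 1.03, R 4.3.3) over the 512 genes with at least 1 TPM in at least 6 libraries, with no covariate. The TMM factors ran from 0.9994 to 1.033 in α-asarone libraries and from 0.9757 to 0.9991 in controls, without overlap, so this scaling differed by group. P-values were Benjamini-Hochberg adjusted over all 512, and a gene was called under 0.05. SE and 95% confidence intervals come from that fit. Alternatives were DESeq2 1.42.0, limma 3.58.1, an exact Mann-Whitney test over the 924 arrangements of the libraries, other scalings and filters, fits without each library in turn, and a block for the replicate number. Replicate pairs within a group differed by 2.27 to 11.9 chi-square per degree of freedom, above sampling noise, so none was counted as a copy.

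Text names each called member, Rpl8, up to 3 uncalled members of highest TPM in each role, the lowest members, and, of the other RNA genes, 6 called with the largest changes and 2 uncalled with the highest TPM. Sf3a1, Prpf6, Ddx23, Celf2, Crnkl1, Ipo4, Calr and Mcm3ap were named outside that rule, after seeing their values. The members, roles and lists were chosen with earlier results of these data known. The 95% interval of Nsun5, the member of lowest TPM, ran from −10.7% to 20.8%, and that of Nom1, also low in TPM, from 5.42% to 16.3%. One member is counted in the totals, medians and fits and is not reported here by itself.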

Additional observations from a re-analysis of the deposited data

Results flagged for a closer look

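The TPM of 25 members, the members' summed TPM and the total estimated count were examined in both groups of 6 libraries, 54 groups of values in all. In 3 of them the gap between an extreme library and its neighbour was a larger part of the range than Dixon's critical value at 95% allows; chance gives about 2.7. In α-asarone replicate 3 the level of Sf3a1 was 32.7 TPM, against 36.8 to 39.2 TPM in the rest of its group. Ppp5c stood at 83.2 TPM in control replicate 2, against 75.5 to 77.1 TPM. Control replicate 2 also had the lowest total estimated count, 843595, where the other 5 controls had 1068547 to 1173845. Without control replicate 2, 4 members were called (15.4%, against 29.7% of all genes tested): Nom1, Trmt1, Sf3a1 and Prpf6.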

How the results depend on the processing

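Against 4 members called (3 higher, 1 lower), 7 were called under median-ratio size factors (6 higher), 9 with table totals (9 higher, 0 lower), 7 by DESeq2 (6 higher), 2 by the exact Mann-Whitney test (0 lower) and 0 by limma on log2(TPM + 1), log2(TPM + 0.1) or log2(TPM + 5) (0 higher, 0 lower, with 8 members at an unadjusted p under 0.05 in each). Of all genes tested, 31.8% were called under median-ratio size factors, 36.9% with table totals and 31.25% by DESeq2. The exact Mann-Whitney test called 20.5% of all genes, the limma settings 22.9%, 22.7% and 22.9%, and the reported fit 30.3%. Without the TPM filter 5 members were called higher, and 27.9% of all genes tested were called in either direction. Among genes with whole counts in every library 5 members were called higher, and 31.6% of those genes were called. With each library left out 1 to 6 members were called, 1 to 5 of them higher and 0 to 2 lower; the lowest counts, 1 and 2, came without α-asarone replicate 5 and without control replicate 3. With each library left out 138 to 152 of all 512 genes tested were called. Of the 36 other RNA genes 16 were called with table totals (44.4%, against 36.9% of all genes tested), where the reported fit called 9. The exact Mann-Whitney test called 5 of them, against 20.5% of all genes tested, and fits without 1 library called 7 to 10. The cause of these differences was not tested. The median log2 fold change of the members was 0.064 with table totals, against 0.022. Same-numbered libraries correlated from −0.038 to 0.143 in their deviations, so the numbers were not taken as pairs. Of 6 libraries, 2 correlated best with their own number. With the replicate block 7 members were called (5 higher, 2 lower), against 32.8% of all genes tested. Over the 26 members and 8 other named genes no call reversed: 771 of 846 alternative values kept the call or its absence, 44 lost a call and 31 gained one. Values of uncalled genes that stayed uncalled, with or without a change of sign, count among the 771. For the called members, the call held in 21 of 24 alternatives for Nom1, 19 of 25 for Trmt1, 17 of 25 for Ddx18 and 13 of 25 for Prkra. Intervals cover the spread between these libraries only, and what depth limits was not tested.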
